A study of Mus musculus with 8 samples.

Results

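The 49 genes described here carry a dividing cell from the end of G2 through mitosis: cyclins and their kinase, mitotic kinases, the spindle checkpoint, the anaphase-promoting complex with its partners, the chromosomal passenger complex, kinetochore proteins, kinesins and the proteins of the spindle midzone. They were taken from the array by gene name, as every spot for a mouse transcript whose name was one of the 49, out of 19965 genes with a RefSeq mRNA probe. All 49 were found, with 73 probes on 91 spots; 30 genes had 1 probe and 19 had more, and each gene was read by its probe of highest mean signal. Total RNA came from whole thyroids of 8-week-old female Balb/c mice, 4 controls (Ct1 to Ct4) and 4 mice given 99mTcO4- by intraperitoneal injection (S539, S588, S589 and S590), with an absorbed dose of 30 Gy to the thyroid and collection 24 hours later. All mice received a normal iodide diet, and the study names the controls both as untreated and as given saline. Each thyroid was hybridised to 1 one-colour Agilent array. On the slide the exposed samples came first and the controls after them, so an effect of place on the slide and one of exposure cannot be told apart. The study's methods state 4 biological replicates per condition. In RNA from a whole gland, fewer cells of a type and less RNA per cell cannot be told apart.

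Entry into mitosis depends on Cdk1 bound to cyclin B, which the Cdc25 phosphatases activate and Wee1 restrains. The spindle checkpoint holds the anaphase-promoting complex inactive until every kinetochore is attached to microtubules, and the complex, with Cdc20 and then Fzr1 (Cdh1), marks securin and the cyclins for destruction. Most of these genes are transcribed only in cycling cells, where the CHR element and CCAAT boxes in their promoters act together, and the adult thyroid epithelium divides rarely. After irradiation, p53 and p21 repress many of them.

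The promoters are shown because the members share these elements, which the choice of genes did not use. RefSeq promoters of 300 bases (250 before and 50 after the start, GRCm38.p6) were found for 40 of the 49 genes, which have 45 promoters between them. The CHR core TTTGAA, read on both strands, was in 64.4% of these promoters against 17.9% of all 32851 promoters. A CCAAT box, also on both strands, was in 75.6% against 37.4%, and both motifs were in 55.6% against 6.95%. The 2 motifs overlapped in 1 of the members' promoters. Below are the 150 bases before the start of 6 members, with matches to either motif on either strand in capitals. Mki67 and Top2a are the proliferation marker and the topoisomerase of mitosis, Ube2c and Cdc20 work with the anaphase-promoting complex, and Cdk1 is the mitotic kinase. Fzr1 holds a CCAAT box without a CHR core in this stretch and differed little between arrays.
Mki67 (chr7:135716380-135716529, minus strand): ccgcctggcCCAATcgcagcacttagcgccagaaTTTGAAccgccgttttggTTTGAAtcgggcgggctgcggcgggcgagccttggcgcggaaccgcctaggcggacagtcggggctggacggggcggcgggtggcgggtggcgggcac
Top2a (chr11:99024190-99024339, minus strand): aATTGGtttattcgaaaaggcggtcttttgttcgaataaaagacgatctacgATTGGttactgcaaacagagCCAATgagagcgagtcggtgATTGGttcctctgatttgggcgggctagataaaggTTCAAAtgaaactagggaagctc
Ube2c (chr2:164769779-164769928, plus strand): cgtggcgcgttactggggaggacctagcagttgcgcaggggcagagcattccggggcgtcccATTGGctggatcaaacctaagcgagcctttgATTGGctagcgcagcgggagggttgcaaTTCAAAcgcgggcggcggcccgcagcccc
Cdc20 (chr4:118437344-118437493, minus strand): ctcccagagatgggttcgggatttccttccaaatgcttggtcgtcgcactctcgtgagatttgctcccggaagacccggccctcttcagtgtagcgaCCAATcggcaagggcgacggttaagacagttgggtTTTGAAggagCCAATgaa
Cdk1 (chr10:69352913-69353062, minus strand): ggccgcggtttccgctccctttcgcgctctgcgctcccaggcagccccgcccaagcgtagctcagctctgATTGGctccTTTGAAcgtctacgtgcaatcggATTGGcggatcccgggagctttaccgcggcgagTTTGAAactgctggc
Fzr1 (chr10:81378371-81378520, minus strand): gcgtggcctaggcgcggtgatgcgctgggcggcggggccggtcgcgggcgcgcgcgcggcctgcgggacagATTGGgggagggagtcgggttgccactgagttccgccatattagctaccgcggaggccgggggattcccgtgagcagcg

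The motif did not sort the members by their pattern on the arrays. Of the 26 members with a CHR core in a promoter, 19 had their highest signals in Ct1 and Ct2, and so did 12 of the 14 members whose promoters lacked it. A match to these letters is a description of the promoter and not a measured binding site.

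Of 12 thyrocyte genes, 11 were above background on every array and Slc26a4 on 5 of 8, and Tg, thyroglobulin, lay between 18.70 and 19.07 on the log2 scale. RNA of neighbouring tissue was present as well, with Pth and Calca above 16 on every array. Controls Ct1 and Ct2 stood apart by thymus transcripts. Rag1, which recombines antigen receptor genes in developing lymphocytes, had log2 signals of 11.96 and 10.64 in Ct1 and Ct2, and 2.89 and 2.92 in Ct3 and Ct4. It was 5.45 in S539 and 2.80 to 2.86 in the other exposed thyroids. The mean of 9 thymocyte genes, each centred on its own mean over the 8 arrays, was 3.43 and 2.40 in Ct1 and Ct2, -1.28 and -1.24 in Ct3 and Ct4, and -1.31 to -0.09 in the exposed thyroids. The same held for 4 genes of thymic epithelium, with scores of 2.35 and 2.20 in Ct1 and Ct2 and -1.18 to -0.35 on the other 6 arrays, and for 7 T cell genes, with 3.45 and 2.30 against -1.30 to -0.15. The 12 thyrocyte genes did not part Ct1 and Ct2 from the other controls, with scores of 0.07 and 0.66 in Ct1 and Ct2, 0.79 and 0.10 in Ct3 and Ct4, and -0.53 to -0.24 in the exposed thyroids, where 2 of them passed the threshold, both lower. Scores of the skeletal muscle list ranged from -1.47 in S539 to 1.08 in Ct4, those of adipocytes from -0.55 in Ct1 to 1.05 in S589, and those of B cells from -0.72 in S589 to 0.34 in S539. The macrophage, endothelium, fibroblast, and parathyroid and C cell lists stayed between -0.51 and 0.51.

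The mitosis genes, too, set Ct1 and Ct2 apart from the other 6 arrays, whose order differed between the scores. The mitosis score, the mean of the 49 centred log2 signals, was 1.40 in Ct1 and 1.48 in Ct2, against -0.31 and -0.32 in Ct3 and Ct4. In the exposed thyroids it was -0.44 in S539, -0.30 in S588, -0.73 in S589 and -0.78 in S590. S588 therefore lay level with Ct3 and Ct4, and S589 and S590 lay below them. Among the exposed thyroids S588 was highest for 21 members and S539 for 18, and S590 was lowest for 17 and S589 for 14. Of the 49 genes, 31 were above background on all 8 arrays and 2 on none. Ct1 and Ct2 were the 2 highest of the 8 arrays for 38 of the 49 genes (77.6%), against 5.85% of all genes. Between Ct1 and the mean of Ct3 and Ct4 the members differed by a median of 1.73 on the log2 scale, and between Ct2 and that mean by 1.79. The design does not tell how much of the mitosis signal in Ct1 and Ct2 came with the thymus transcripts. With the thymocyte score as a covariate in the fit, the median log2 fold change of the members (exposed minus control) was -0.37, with 38 lower and 11 higher, against -1.10 without it. For the main counts and genes below, values against Ct3 and Ct4 alone stand beside those against all 4 controls.

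**Figure D1:**
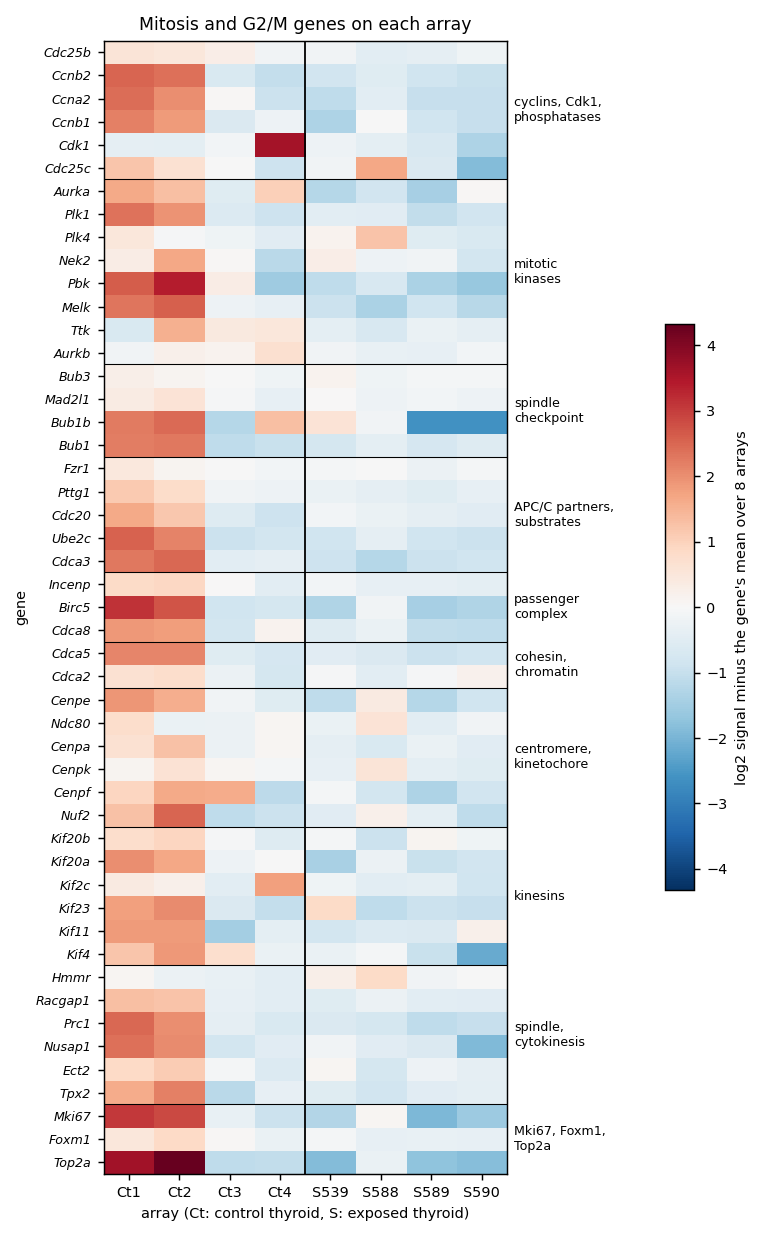
Heat map of the 49 genes (rows, by role) on the 8 arrays (columns); colour is the log2 signal minus the gene's mean over all arrays, red higher and blue lower. Ct1 and Ct2 are red for most genes, while Ct3 and Ct4 resemble the exposed thyroids.

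**Figure D2:**
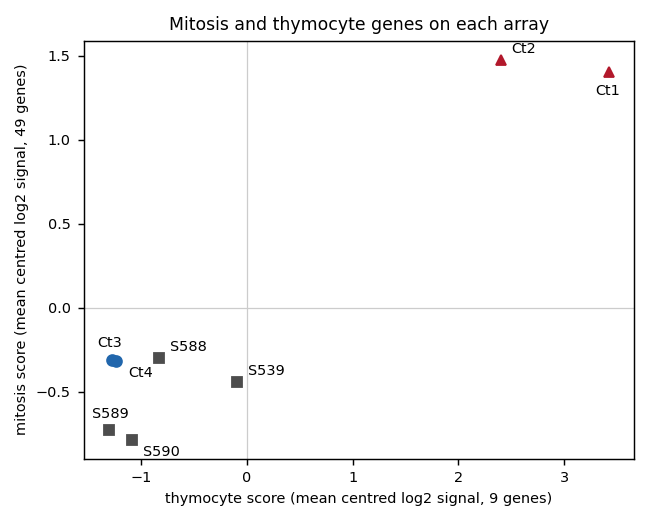
Mitosis score against thymocyte score for each of the 8 arrays (triangles Ct1 and Ct2, circles Ct3 and Ct4, squares exposed thyroids); both axes are means of centred log2 signals. Ct1 and Ct2 lie at 1.40 and 1.48 on the mitosis axis, and the other 6 arrays lie between -0.78 and -0.30.

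With all 8 arrays, 47 of the 49 genes had a lower mean in exposed than in control thyroids, and 2 had a higher one (46 and 3 with 75th percentile scaling). The median log2 fold change (exposed minus control) was -1.10, against -0.03 over all genes, and -0.90 with 5 members that were above background in no exposed thyroid set at their bound. None passed an adjusted p of 0.05 in limma (0 of 49, lowest adjusted p 0.244), where 1.21% of all genes did. At an unadjusted p under 0.05, limma gave 16 members, all lower in the exposed thyroids, against 8.32% of all genes in that direction. Aurkb is among the 16, and Aurkb and Ttk are among the 47 lower ones, though neither was above background on any array. Student's t-test, which the paper names in its general statistics and not for its arrays, gave 7. After adjustment the t-test gave 0 members too. In 5 members (Melk, Cdca3, Kif20a, Cenpa and Pttg1) every exposed array lay below every control array, against 6.42% of all genes. With 75th percentile scaling this held for Pttg1 alone, and with the deposited values for Pttg1, Cdca3, Cenpa and Kif20a.

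Without Ct1 and Ct2 the difference was small. The median over the members was -0.17, against -0.06 over all genes, with 30 genes lower and 19 higher. None passed the adjusted threshold, where 0.205% of all genes did. At an unadjusted limma p under 0.05 there were 4 members (Ttk, Melk, Cdca3 and Aurkb), against 2799 of all 19965 genes. Of the 4, only Cdca3 was above background on any of the arrays compared. Every exposed array lay below both remaining controls in 8 members, against 17.3% of all genes, a share of the members near that background.

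**Figure D3:**
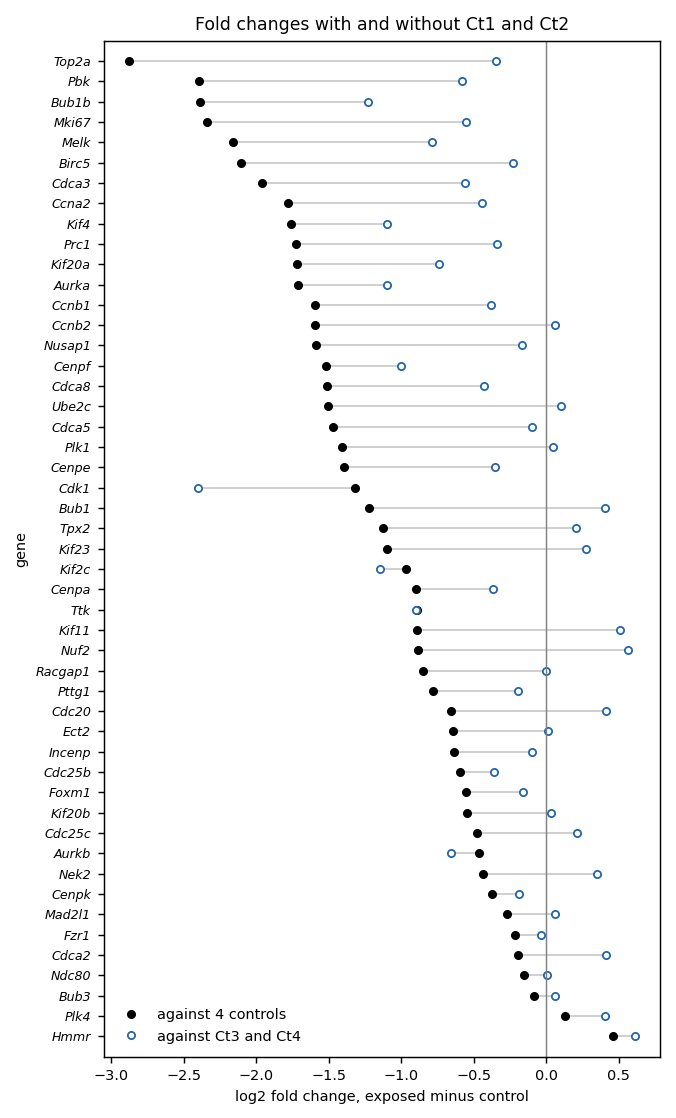
Log2 fold change of each of the 49 genes (exposed minus control), against all 4 controls (filled) and against Ct3 and Ct4 alone (open). Filled points lie below 0 for 47 genes, and open points for 30.

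Among the cyclins, Cdk1 and its phosphatases, all 6 genes had lower means in the exposed thyroids, with a median log2 fold change of -1.46. Against Ct3 and Ct4 alone the median was -0.37, with 4 lower and 2 higher. Ccna2 encodes cyclin A2, which acts in S phase and early mitosis. Its log2 signals were 10.36, 9.96, 7.97 and 7.01 in Ct1 to Ct4, and 6.83, 7.46, 6.94 and 6.94 in S539, S588, S589 and S590. Only S588 reached into the range of the controls, and the log2 fold change was -1.78 ± 0.72 (SE, limma adjusted p = 0.381), and -0.45 against Ct3 and Ct4. Ccnb2, a B-type cyclin, had 10.91 and 10.76 in Ct1 and Ct2 and 7.72 and 7.35 in Ct3 and Ct4. The exposed thyroids had 7.55, 7.85, 7.53 and 7.43, around the level of Ct3 and Ct4, and its log2 fold change turned from -1.59 against 4 controls to 0.06 against Ct3 and Ct4. Cdc25b, a phosphatase that activates Cdk1, varied less, between 9.75 and 10.48 in the controls and between 9.44 and 9.76 in the exposed thyroids. Its log2 fold change was -0.60 ± 0.19 (SE, limma adjusted p = 0.276), and -0.36 against Ct3 and Ct4, the groups overlapping by Ct4 alone. Ccnb1, cyclin B1, had 9.16, 8.83, 6.37 and 6.75 in the controls and 5.65, 6.98, 6.12 and 5.98 in the exposed thyroids, and only S588 lay above Ct3 and Ct4. Cdc25c, another activator of Cdk1, was above background in 1 array of each group.

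The probes for Cdk1 disagreed. The probe of highest mean signal (mm9, chr10:68799513-68799572) gave 5.85, 5.83, 6.14 and 9.86 in Ct1 to Ct4 and 4.93 to 6.05 in the exposed thyroids, and the spot behind the value in Ct4 carried the scanner software's outlier mark. A second probe (chr10:68801072-68801131) gave 7.39 and 7.82 in Ct1 and Ct2, 4.68 and 2.93 in Ct3 and Ct4, and 2.80 to 4.07 in the exposed thyroids, where it was not above background on any array. The second probe thus had the order of arrays seen in most members, and the first did not.

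Of the 8 mitotic kinases, Aurkb and Ttk were above background on no array, so no level of theirs can be compared. Of the other 6, 5 had lower means in the exposed thyroids and 1, the centriole kinase Plk4, a higher one (log2 fold change 0.13 ± 0.43, SE). In Ct3 and Ct4, 5 of the 8 kinases were below background. Aurka, the kinase that matures the spindle poles, had 10.34, 10.00, 8.18 and 9.72 in the controls. Its values in S539, S588, S589 and S590 were 7.47, 7.88, 7.27 and 8.76. The high exposed thyroid, S590, lay above Ct3, and the log2 fold change of -1.71 ± 0.52 (SE) had the lowest adjusted p among the 49 genes (limma, 0.244). Unlike Ccnb2, Aurka was high in Ct4 as well as in Ct1 and Ct2, and its log2 fold change without the latter was -1.10. Plk1, which acts from mitotic entry to cytokinesis, had 10.71 and 10.30 in Ct1 and Ct2, and 7.29 to 7.90 on the other 6 arrays. Nek2, a centrosome kinase, was above background in 2 controls and 3 exposed thyroids, with a log2 fold change of -0.44 ± 0.56 (SE). Against Ct3 and Ct4, in both of which Nek2 was below background, the value was 0.35.

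The kinases Melk and Pbk were above background in only 2 controls and in no exposed thyroid. For Melk the control mean was at least 1.89-fold the exposed level, and for Pbk at least 2.42-fold (limma adjusted p = 0.286 and 0.398). Such bounds set the control mean against the lowest signal well above background on the exposed arrays, or the probe's own signal where that was higher. The bounds rested on Ct1 and Ct2: leaving out Ct2 lowered them to 1.33-fold for Melk and 1.46-fold for Pbk, and in Ct3 and Ct4 neither gene was above background.

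The 4 spindle checkpoint genes, all with lower means in the exposed thyroids, split by how much they varied. Against Ct3 and Ct4 alone 1 was lower and 3 were higher, with a median of 0.06. Bub3, which brings checkpoint kinases to the kinetochore, had 12.35, 12.22, 12.10 and 11.90 in the controls and 12.26, 11.93, 12.03 and 12.01 in the exposed thyroids. The groups overlapped throughout, and the log2 fold change was -0.09 ± 0.15 (SE, limma adjusted p = 0.841). Mad2l1, the checkpoint's inhibitor of Cdc20, also lay in a narrow range by its chosen probe. It ran from 8.87 to 9.82 in the controls and from 8.99 to 9.24 in the exposed thyroids. Another Mad2l1 probe, above background on every array, ranged more widely. It had 10.08, 8.23, 8.67 and 8.18 in the controls and 9.16, 8.53, 9.84 and 8.66 in the exposed thyroids. Its log2 fold change was 0.26 ± 0.48 (SE), and the spot behind its value in S589 carried an outlier mark. The remaining, dimmer Mad2l1 probe had a log2 fold change of -0.17. Bub1b had 7.61, 7.84, 4.14 and 6.66 in the controls and 5.96, 5.22, 2.76 and 2.76 in the exposed thyroids, where 2 of the 4 arrays were above background. Bub1 was above background only in Ct1 and Ct2 (6.89 and 6.97), and its control mean was at least 1.65-fold the exposed level, or 1.12-fold without Ct2. The spots behind Bub1 carried an outlier mark on 5 arrays, Ct1 among them.

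All 5 genes around the anaphase-promoting complex had lower means in the exposed thyroids, with a median of -0.78. Against Ct3 and Ct4 alone the median was -0.04, with 3 lower and 2 higher. Fzr1, the activator that keeps the complex on in late mitosis and G1, had 12.13, 11.79, 11.66 and 11.57 in the controls and 11.61, 11.65, 11.44 and 11.59 in the exposed thyroids. Pttg1, securin, had 11.73, 11.38, 10.42 and 10.35 in the controls and 10.30, 10.19, 10.04 and 10.23 in the exposed thyroids. Every exposed value of Pttg1 lay below every control value, with S539 just under Ct4, and its log2 fold change was -0.78 ± 0.33 (SE, limma adjusted p = 0.394), and -0.20 against Ct3 and Ct4.

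Ube2c, the ubiquitin-conjugating enzyme of the complex, and Cdc20, its mitotic activator, both carry the CHR core and CCAAT boxes printed above. Ube2c had 10.31 and 9.91 in Ct1 and Ct2, 6.83 and 6.97 in Ct3 and Ct4, and 6.89, 7.38, 6.88 and 6.84 in the exposed thyroids. A second Ube2c probe had 9.87 and 9.78 in Ct1 and Ct2 and 6.01 and 6.05 in Ct3 and Ct4. Its exposed values ran from 5.01 to 6.56, above background on 2 exposed arrays, and only S588 lay above Ct3 and Ct4. Cdc20 had 11.34 and 10.88 in Ct1 and Ct2, 9.14 and 8.81 in Ct3 and Ct4, and 9.60, 9.43, 9.31 and 9.21 in the exposed thyroids. Each exposed value of Cdc20 was above both Ct3 and Ct4 and below both Ct1 and Ct2, so its fold change turned sign, from -0.66 to 0.41, when Ct1 and Ct2 were left out. Cdca3, an adaptor for the destruction of Wee1, had 9.09, 9.30, 6.37 and 6.43 in the controls and 5.91, 5.58, 5.89 and 5.96 in the exposed thyroids. Its groups did not overlap, though they did with 75th percentile scaling, and the log2 fold change was -1.96 ± 0.72 (SE, limma adjusted p = 0.340), or -0.56 against Ct3 and Ct4.

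The 3 genes of the chromosomal passenger complex, which corrects faulty microtubule attachments, had a median log2 fold change of -1.51, and of -0.23 against Ct3 and Ct4, with all 3 lower. Birc5, survivin, had 12.00, 11.58, 7.99 and 8.09 in the controls and 7.57, 8.71, 7.41 and 7.55 in the exposed thyroids. Ct1 and Ct2 lay far above all other arrays, S588 lay above Ct3 and Ct4, and the log2 fold change was -2.11 ± 0.99 (SE, limma adjusted p = 0.444), and -0.23 against Ct3 and Ct4. Cdca8, borealin, had 10.29, 10.20, 7.61 and 8.55 in the controls and 7.87, 8.11, 7.34 and 7.29 in the exposed thyroids. Incenp, the scaffold of the complex, moved less, with 11.87, 11.93, 11.07 and 10.58 in the controls and 10.61 to 10.92 in the exposed thyroids. Of the pair grouped as cohesin and chromatin anchors, Cdca5 (sororin, which keeps sister chromatids joined) had 9.22 and 9.23 in Ct1 and Ct2 and 6.17 to 6.62 on the other 6 arrays. Cdca2 differed little, with a log2 fold change of -0.20, or 0.12 with 75th percentile scaling and 0.41 against Ct3 and Ct4.

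All 6 centromere and kinetochore genes had lower means in the exposed thyroids, with a median of -0.89. Against Ct3 and Ct4 alone the median was -0.27, with 4 lower and 2, Ndc80 and Nuf2, higher. Cenpe, a kinetochore motor, had 10.32, 10.00, 8.29 and 7.89 in the controls and 7.34, 8.81, 7.19 and 7.58 in the exposed thyroids, where S588 again lay above Ct3 and Ct4. Cenpa, the centromeric histone, had 8.24, 8.85, 7.32 and 7.67 in the controls and 7.19, 6.92, 7.29 and 7.09 in the exposed thyroids. Its groups did not overlap, though they did with 75th percentile scaling, and the log2 fold change was -0.90 ± 0.32 (SE, limma adjusted p = 0.325), or -0.37 against Ct3 and Ct4. Ndc80, which binds microtubules, showed no such order, with 8.05 to 9.10 in the controls and 7.89 to 8.93 in the exposed thyroids. Cenpf was above background in 3 controls and no exposed thyroid, at least 1.82-fold higher in the controls, or 1.49-fold without Ct2. The probes for Nuf2, a partner of Ndc80, disagreed. The chosen one was above background in 2 controls and no exposed thyroid, and another in 2 exposed thyroids and no control. With the exposed level at its bound, the log2 difference of control minus exposed for the chosen probe was -0.005. The lower exposed mean of Nuf2 is therefore not a measured direction.

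The kinesins, motors that build and divide the spindle, had lower means in the exposed thyroids in 6 of 6 genes, with a median of -1.03. Against Ct3 and Ct4 alone the median was -0.35, with 3 lower and 3 (Kif11, Kif20b and Kif23) higher, and Kif11 and Kif23 were below background in both of these controls. Kif20a, which works in the midzone, had 8.69, 8.34, 6.47 and 6.65 in the controls and 5.27, 6.41, 5.72 and 5.86 in the exposed thyroids. Its groups did not overlap, though they did with 75th percentile scaling, and the log2 fold change was -1.72 ± 0.55 (SE, limma adjusted p = 0.274), or -0.74 against Ct3 and Ct4. Kif11, which pushes the spindle poles apart, was above background in only 2 arrays of each group. Kif2c, a microtubule depolymerase, was highest in Ct4 (7.95, a spot with an outlier mark) rather than in Ct1 and Ct2 (6.55 and 6.39). Its second probe had 5.82, 6.45, 4.02 and 6.36 in Ct1 to Ct4 and was highest in Ct2. Kif23, which acts in cytokinesis, had 7.28 and 7.52 in Ct1 and Ct2, 6.31 in S539 and 4.37 to 4.86 on the other 5 arrays. Kif4, a chromosome-bound kinesin, was above background in 3 controls and 1 exposed thyroid. Kif20b had the smallest difference of the 6, with a log2 fold change of -0.55 ± 0.38 (SE), and 0.03 against Ct3 and Ct4.

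Of the 6 spindle and cytokinesis genes, 5 had lower means in the exposed thyroids, with a median of -0.99 over the 6. Against Ct3 and Ct4 alone 3 were lower and 3 higher, with a median near 0. Prc1, which bundles midzone microtubules, had 9.91, 9.44, 7.04 and 6.76 in the controls and 6.81, 6.67, 6.33 and 6.42 in the exposed thyroids. Only S539 exceeded Ct4, and the log2 fold change was -1.73 ± 0.72 (SE, limma adjusted p = 0.397), and -0.34 against Ct3 and Ct4. Nusap1, a spindle-associated protein, had 9.68, 9.32, 6.50 and 6.80 in the controls and 7.14, 6.78, 6.66 and 5.35 in the exposed thyroids. Hmmr, a hyaluronan receptor that also binds the spindle, was the exception, with 10.10, 9.75, 9.70 and 9.56 in the controls and 10.26, 10.84, 9.87 and 10.00 in the exposed thyroids. Its log2 fold change was 0.46 ± 0.24 (SE, limma adjusted p = 0.481), and 0.61 against Ct3 and Ct4, above which every exposed value lay. Tpx2, which activates Aurka on the spindle, had 8.59 and 9.15 in Ct1 and Ct2 and 5.80 to 6.60 on the other 6 arrays. A second Tpx2 probe did not part the arrays in this way. It had 7.06 and 7.79 in Ct1 and Ct2 and 5.44 to 7.14 on the other 6, with S589 above Ct1. Racgap1 and Ect2, partners in placing the cleavage furrow, had log2 fold changes of -0.85 ± 0.45 and -0.64 ± 0.39 (SE). Against Ct3 and Ct4 alone these were -0.006 and 0.008.

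Mki67, the proliferation marker Ki-67, had 11.89, 11.66, 8.51 and 7.90 in the controls and 7.55, 8.91, 6.87 and 7.26 in the exposed thyroids. Its log2 fold change was -2.34 ± 1.00 (SE, limma adjusted p = 0.404), and -0.55 against Ct3 and Ct4. Ct1 and Ct2 exceeded every other array, and S588 exceeded Ct3 and Ct4. Top2a, the topoisomerase that untangles chromosomes, had 8.88 and 9.58 in Ct1 and Ct2 and 4.14 and 4.18 in Ct3 and Ct4, and was not above background in any exposed thyroid. The control mean was at least 3.95-fold the exposed level, with 2 of 4 controls above background. Leaving out Ct2 lowered this bound to 2.03-fold, and in Ct3 and Ct4 Top2a was not above background. Foxm1, the transcription factor that drives many G2/M genes, varied little, from 7.37 to 8.50 in the controls and from 7.28 to 7.55 in the exposed thyroids.

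**Figure D4:**
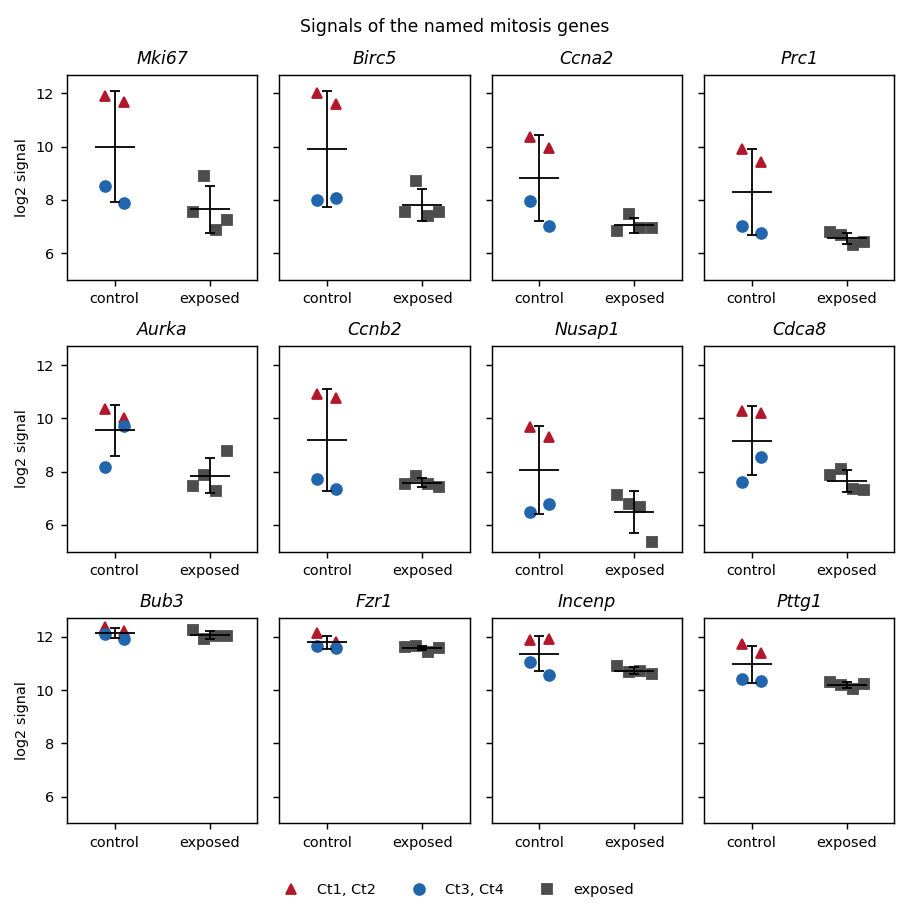
Log2 signal of 12 genes on each array (triangles Ct1 and Ct2, circles Ct3 and Ct4, squares exposed thyroids), with mean and SD of the 4 arrays of each group; the upper 8 have the largest fold changes at a mean signal of at least 7 and the lower 4 the brightest probes. The control SD of Mki67 is 2.08 and that of Bub3 is 0.19.

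The members had 24 further probes that were not chosen for a gene. In 20 of them the exposed mean was lower, 0 passed the adjusted threshold, and 11 had their highest signals in Ct1 and Ct2, with 6 above background on no array. Cenpk had a second probe with 7.21, 7.59, 7.17 and 7.17 in the controls and 6.41, 6.47, 6.74 and 6.47 in the exposed thyroids, so that its groups did not overlap. Its log2 fold change was -0.76 ± 0.16 (SE, limma adjusted p = 0.092), against -0.37 for the chosen probe. A further probe for Nuf2 ran the other way, with 2.99, 3.11, 3.11 and 3.28 in the controls, all below background, and 5.74, 3.65, 5.47 and 4.78 in the exposed thyroids, of which 2 were above it. Its groups did not overlap (limma adjusted p = 0.142), while the chosen Nuf2 probe had a lower exposed mean. A further Kif23 probe also had groups that did not overlap, with a log2 fold change of -0.36. It was above background on no array, so this is not a measured direction.

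Other genes of mitosis that were not among the 49 were listed for comparison, and 63 of 65 were found. In this list 46 genes had lower and 17 higher means in the exposed thyroids, with a median log2 fold change of -0.64, and Ct1 and Ct2 were highest for 31. Without Ct1 and Ct2, 35 were lower and 28 higher, with a median of -0.10. Unlike the members, 3 passed the adjusted threshold (1.21% of all genes did), and all 3 rose. Psrc1, a microtubule-binding protein known as a p53 target, had 7.33, 7.22, 6.77 and 7.07 in the controls and 11.49, 10.74, 10.99 and 11.06 in the exposed thyroids. Its log2 fold change was 3.97 ± 0.20 (SE, limma adjusted p = 0.0013).

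Gtse1, a G2 protein that restrains p53, had 5.36, 5.72, 3.11 and 4.44 in the controls and 10.11, 9.27, 9.51 and 9.77 in the exposed thyroids, a log2 fold change of 5.01 ± 0.55 (SE, limma adjusted p = 0.011). It was above background in 2 of 4 controls, and without S590 its adjusted p was 0.055. Ckap2, a protein of the spindle microtubules, had 6.65, 7.14, 5.62 and 5.88 in the controls and 10.09, 8.80, 8.98 and 9.43 in the exposed thyroids, with a log2 fold change of 3.01 ± 0.41 (SE, limma adjusted p = 0.023). The adjusted p of Ckap2 rose to between 0.052 and 0.081 when Ct3, Ct4 or any 1 exposed thyroid was left out. By Student's t-test on all 8 arrays it was 0.069, and 2 of the further mitosis genes passed. In each of the 3 genes the exposed thyroids lay above all controls, Ct1 and Ct2 included, and without Ct1 and Ct2 the log2 fold changes were 4.15 for Psrc1 and 3.58 for Ckap2 (limma adjusted p = 0.031 and 0.055). Gtse1 was below background in both Ct3 and Ct4, and the exposed mean was at least 16.6-fold their level (limma adjusted p = 0.031). Ccnf, cyclin F, had 9.75 and 9.75 in Ct1 and Ct2, 8.48 and 8.39 in Ct3 and Ct4, and 10.11 to 10.75 in the exposed thyroids. Its log2 fold change was 1.41 ± 0.37 (SE, limma adjusted p = 0.179), and 2.07 against Ct3 and Ct4 (limma adjusted p = 0.054). Kif22, a chromosome-arm kinesin, had 10.23, 10.08, 7.76 and 7.87 in the controls and 7.37, 6.75, 6.72 and 6.88 in the exposed thyroids. The log2 fold change of Kif22 was -2.05 ± 0.62 (SE, limma adjusted p = 0.241), and -0.88 against Ct3 and Ct4 (limma adjusted p = 0.250).

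**Figure D5:**
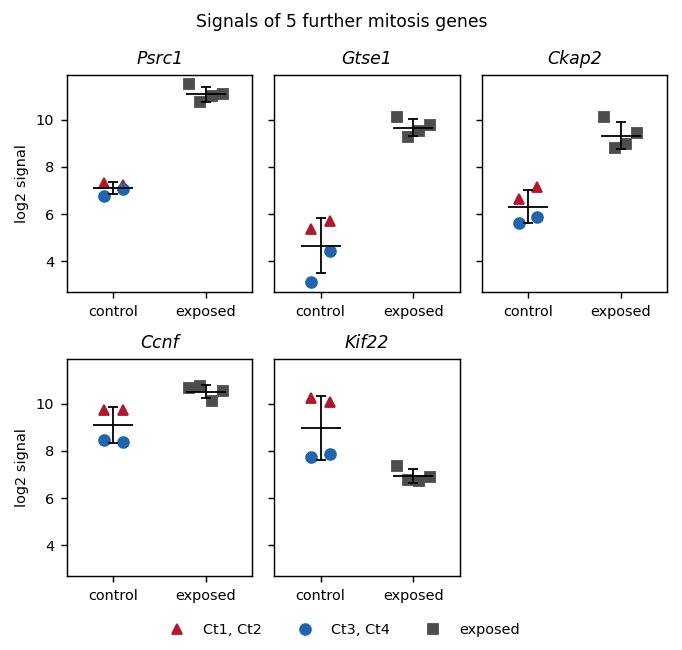
Log2 signal of 5 mitosis genes outside the 49 on each array (triangles Ct1 and Ct2, circles Ct3 and Ct4, squares exposed thyroids), with mean and SD of each group. In Psrc1, Gtse1, Ckap2 and Ccnf the 4 exposed thyroids lie above all controls, and in Kif22 they lie below.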

How the data were processed

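The authors labelled RNA with Cy3 and hybridised it to SurePrint G3 mouse arrays, and deposited for each array the scanner output with the intensity of every spot. The deposited series table holds log2 values, which matched quantile-normalized log2 median spot signals within 0.0378 and served as an alternative here. The methods name limma, quantile normalization and an adjusted p of 0.05.

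Here log2 background-subtracted intensity was quantile-normalized, control spots were left out, and spots of a probe were averaged. The 2 groups were compared with limma's lmFit and eBayes (R 4.3.3, limma 3.58.1) over 55681 probes with Benjamini-Hochberg adjustment, which called 435 probes. A gene was read by its probe of highest mean signal. Between 60.5% and 77.3% of spots per array were well above background, no spot was saturated, and precision is limited by having 4 arrays a group. Positions of probes were taken from the scanner output (mm9). Promoters are from RefSeq (GRCm38.p6).

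Genes with values on every array were the 8 of largest absolute log2 fold change whose mean log2 signal reached 7, the 4 of highest mean signal and at least 1 per role group; of the further mitosis genes, those passing and the 5 largest. The members and lists were chosen with earlier results of these data known. Lists of thyrocyte, thymocyte, T cell, thymic epithelium, B cell, macrophage, endothelium, fibroblast, skeletal muscle, adipocyte, and parathyroid and C cell genes were scored as the mean of centred log2 signals. The fit was tested on simulated arrays with known changes. Sizes and directions were recovered without bias in arrays simulated with independent errors. That simulation held no shift shared by Ct1 and Ct2, so it does not cover their effect on the fold changes here. Many of the known changes, large ones included, did not pass the adjusted threshold at 4 against 4 arrays. A gene that did not pass is therefore not shown to be unchanged.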

Additional observations from a re-analysis of the deposited data

Results flagged for a closer look

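Of 98 groups of 4 arrays (49 genes in 2 groups), 7 held 1 array far from the other 3 by Dixon's criterion, and chance flags about 1 in 20 groups, here 4.9. In 5 of them the array was S588, which was above the other exposed thyroids. Its log2 signal was 7.46 for Ccna2 (others 6.83 to 6.94), 7.38 for Ube2c (6.84 to 6.90), 8.71 for Birc5 (7.41 to 7.57), 8.10 for Cenpk (7.03 to 7.18) and 4.95 for Top2a (3.36 to 3.52). Further probes of Ube2c (6.56) and Birc5 (4.79) were also highest in S588 among the exposed thyroids. The other Birc5 probe (4.70, against 4.83 in S539) and the second Cenpk probe (6.47, others 6.41 to 6.74) were not. Top2a was above background in no exposed thyroid, so its value in S588 is not a measured level. Kif23 stood out on S539 at 6.31 (others 4.37 to 4.56). Cdk1 stood out on Ct4 at 9.86 (others 5.83 to 6.14), on a spot with an outlier mark.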

How the results depend on the processing

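The labels give the groups no shared replicate numbers. No paired analysis was possible because no number links a control to an exposed thyroid. No member passed the adjusted threshold in any setting tried (lowest adjusted p 0.0711, without Ct replicate 4), with 49 members tested except 35 under the filter on dim probes and 47 without outlier-marked spots. Leaving out 1 array at a time moved the median log2 fold change of the members between -1.486 (without Ct3) and -0.643 (without Ct2), the members whose groups did not overlap between 5 and 14 (without Ct4), and the further mitosis genes called between 1 (without S590) and 4 (without Ct1 or Ct4). The count of members whose groups did not overlap was 1 with 75th percentile scaling, 8 when any probe counted, 11 without Ct1 and Ct2, and 14 without Ct1, Ct2 and S539. The 11 were 8 lower and 3 higher. Of all 19965 genes, 3455 were lower and 2418 higher without overlap on the same arrays, against 1281 and 1115 with all 8. Groups separate more easily with fewer arrays, so a larger count with arrays left out is not a result about the members. Shares over all genes for the other settings are not given here. The median of the members was -0.169 without Ct1 and Ct2, -0.187 without S539 as well, and -0.371 with the thymocyte score as covariate. The further mitosis genes called were 5 with normexp, with the deposited values and with a variance trend, 6 with the filter on dim probes and with the thymocyte score as covariate, 7 with array weights, and 0 without Ct1, Ct2 and S539, where 5 arrays are left. The causes were not tested. The log2 fold changes that changed sign were these. Without Ct1 and Ct2 the values were Ccnb2 0.057, Cdc25c 0.212, Plk1 0.043, Nek2 0.347, Bub1 0.406, Bub3 0.060, Mad2l1 0.062, Cdc20 0.411, Ube2c 0.101, Cdca2 0.412, Nuf2 0.563, Ndc80 0.004, Kif11 0.506, Kif20b 0.032, Kif23 0.272, Tpx2 0.206 and Ect2 0.008. Without Ct1, Ct2 and S539 the values were Ccnb2 0.070, Cdc25c 0.188, Nek2 0.174, Bub1 0.452, Mad2l1 0.009, Cdc20 0.339, Ube2c 0.136, Cdca2 0.398, Nuf2 0.578, Ndc80 0.076, Kif11 0.627, Tpx2 0.195 and Racgap1 0.022. With the thymocyte score as covariate the values were Cdc25c 0.109, Nek2 0.122, Bub3 0.042, Cdc20 0.170, Cdca2 0.239, Nuf2 0.133, Ndc80 0.014, Kif11 0.105 and Kif23 0.013. In the other settings, the sign changed with 75th percentile scaling Cdca2 0.121, with normexp Cdc25c 0.084 and Aurkb 0.063, with the deposited values Aurkb 0.086, with array weights Plk4 -0.037 and by the probe of lowest p Cdca2 1.017 and Nuf2 1.787. When 1 array was left out at a time, the log2 fold change crossed 0 for 5 members, with a range of -1.124 to 0.059 for Cdc25c, -0.268 to 0.365 for Plk4, -0.901 to 0.047 for Nek2, -0.489 to 0.021 for Cdca2 and -0.374 to 0.075 for Ndc80. Signal over background limits Aurkb and Ttk, above background on no array, and Melk, Pbk, Bub1, Cenpf and Top2a, above it in controls only. The chosen Nuf2 probe was above background in controls only as well. Aurkb, Bub1, Cdc25c, Kif11, Kif23, Nek2, Nuf2 and 4 others were below background in Ct3 and Ct4, so their signs there are not measured directions.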
